A study of Danio rerio with 12 samples.

Results

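The comparison follows microRNAs in endothelial cells, the inner lining of blood vessels, of the zebrafish from 24 to 48 hours post fertilization (hpf). Its members are 3 of the 12 small RNA libraries of the series, chosen by title: 1 Endo library at 24 hpf and 2 Endo libraries at 48 hpf, called replicates 1 and 2. All 3 came from transgenic embryos raised at 28 °C, dissociated with Liberase and sorted for GFP. The sources used here name neither the transgene nor its promoter, the strain or the number of embryos pooled. Nothing says that the replicates are separate clutches, and p-values may then measure technical spread only. The NoEndo libraries of the same stages, 1 at 24 hpf and 2 at 48 hpf, stand beside them where the populations are compared. They also enter the fit behind the Endo p-values, whose spread comes from the 48 hpf replicates of both populations. The NoEndo labels also read endothelial and GFP, so that group rests on its titles, and which cells it holds is not given. At 72 hpf the files of 1 Endo and 1 NoEndo library hold the same values, and neither was used.

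MicroRNAs are short RNAs that pair with messenger RNAs through a seed near their 5' end and lower their stability and translation. A hairpin precursor yields a 5p and a 3p arm, of which one is usually kept and the other degraded. In the zebrafish embryo, miR-430 clears maternal messenger RNAs early in development, the let-7 family accumulates as cells differentiate, and miR-126, encoded within the endothelial gene egfl7, is needed for vessel integrity. From 24 to 48 hpf, blood circulation begins and the trunk and head vessels sprout and connect.

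The 24 hpf library held 324476 reads on mature microRNAs, and the 48 hpf replicates 1068864 and 743938. They made up 11.2%, 16.3% and 7.75% of the larger library total that the files record. Levels are given in normalised CPM (depth-scaled counts), corrected by TMM factors of 0.878, 0.971 and 1.26. For NoEndo the factors were 0.903 at 24 hpf and 1.44 and 2.37 at 48 hpf. Those of the later Endo libraries quoted below were 0.909 at 72 hpf and 0.468 at 6 days. In the 24 hpf library a single count was worth 3.52 normalised CPM, and a count of 0 allowed up to 10.5 (3 counts). Intervals are 95% and cover counting error only, exact Poisson for a level at 24 hpf and Wilson for a share. No share of a library below has a Wilson interval wider than ± 0.158 percentage points. A lower level in a sorted sample can come from fewer cells of a type or from less RNA per cell, which cannot be told apart here.

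The endothelial label was checked against miR-126, whose 3p and 5p arms mark endothelium. miR-126a-3p stood at 12310.4 normalised CPM in Endo at 24 hpf, and at 35522 and 50859.6 in the 48 hpf replicates. In NoEndo it stood at 234 at 24 hpf, and at 282 and 175 at 48 hpf. Every Endo library was thus far above every NoEndo library of its stage. miR-126b-3p followed the same order of populations, with 8363, 7271 and 15309 normalised CPM in the Endo libraries and 68.1 to 102 in the NoEndo libraries.

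Of 265 microRNAs tested with edgeR, 22 differed between 24 and 48 hpf at an adjusted p under 0.05 (8.3% of those tested). They divided into 13 that rose (4.91%) and 9 that fell (3.4%). The 6 called members of the let-7 family and 4 entries of miR-9, a neural microRNA, made up most of the increases, joined by miR-139-5p, miR-16c-5p and miR-145-5p. The decreases were miR-430b-3p and miR-430c-3p, miR-25-5p and miR-19d-3p of the miR-17-92 family, miR-10a-5p, miR-10b-5p and miR-10c-5p of the Hox clusters, miR-193b-5p and the epithelial miR-200a-3p. All 22 also differed at least 2-fold between the 24 hpf library and each 48 hpf replicate. That count uses libraries already in the test and is no separate support. Where stages are said below not to overlap, 1 library lies outside 2, which is no test either. With a single library at 24 hpf, the test assumes that it varies like the 48 hpf replicates of Endo and NoEndo, which together give the spread. Without either Endo library at 48 hpf no call remained at an adjusted p under 0.05 in edgeR, and 45 or 46 microRNAs had an unadjusted p under 0.05, against 70 (26.4%) with both. Scaled by total counts alone, 11 rose and 2 fell, and the median difference of all tested microRNAs was 0.50 on the log2 scale in place of 0.12.

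**Figure D1:**
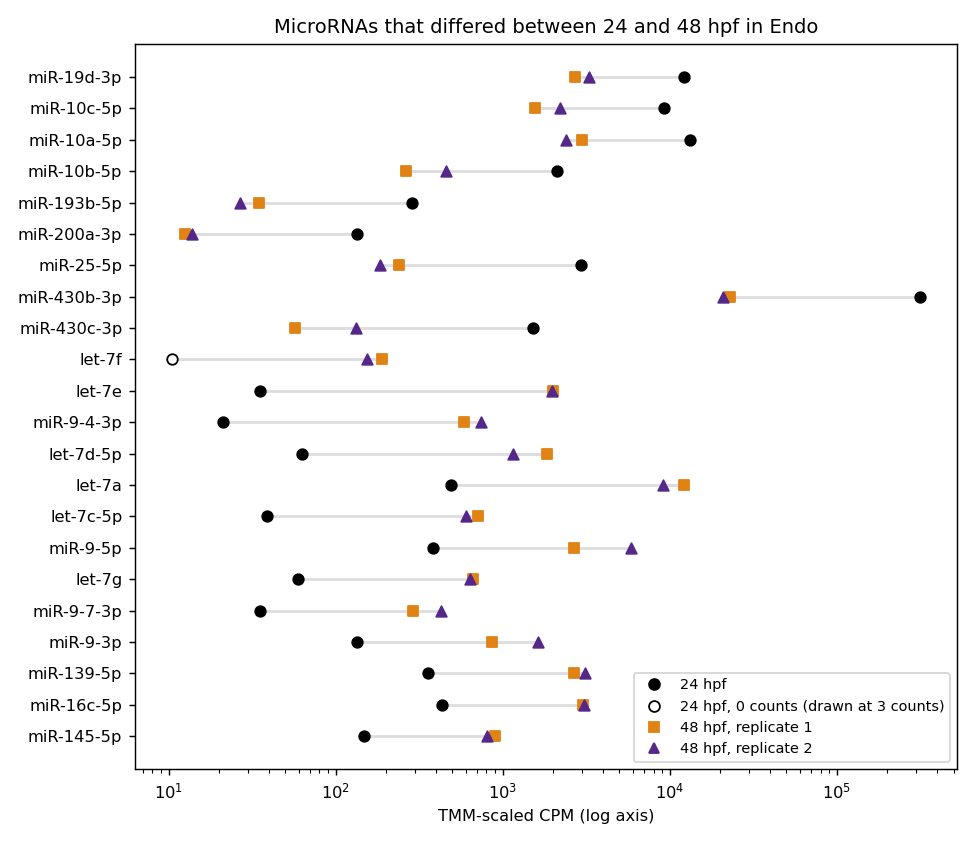
Normalised CPM on a log axis of the 22 microRNAs that passed the test, with circles for the 24 hpf library and squares and triangles for the 48 hpf replicates. The open circle is let-7f, whose count rounded to 0 at 24 hpf and which is drawn at the level of 3 counts. In each row both 48 hpf points lie on the same side of the 24 hpf point.

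Counted without a test, 64 of the 265 microRNAs (24.2%) were at least 2-fold higher in both 48 hpf replicates than at 24 hpf, and 51 (19.2%) at least 2-fold lower in both. For 88 (33.2%) the 48 hpf replicates themselves differed 2-fold from each other, with a median absolute difference of 0.67 on the log2 scale of CPM + 1. Only 3 microRNAs were 2-fold higher against one replicate and 2-fold lower against the other. The split depends on the scaling, with 48 higher and 67 lower by DESeq2 size factors, and 79 and 36 by total counts alone. At a fold of 4 the numbers were 29 higher and 18 lower, and 18 between replicates. Among the 149 tested microRNAs at a mean of at least 100 normalised CPM, 37 were 2-fold higher and 28 lower against both, and 36 differed between replicates.

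**Figure D2:**
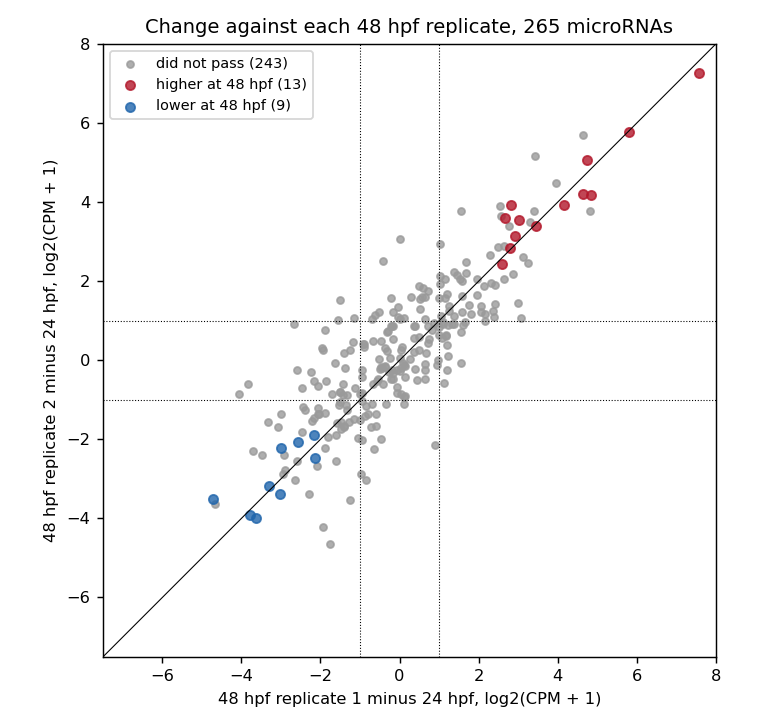
Difference from the 24 hpf library of each 48 hpf replicate, in log2(CPM + 1), for 265 microRNAs, with dotted lines at 2-fold and a solid line of equal change. The 13 called increases and the 9 called decreases lie beyond the dotted lines on both axes, and many grey points that did not pass do so too.

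The let-7 family, which promotes differentiation and is held back in early embryonic cells by Lin28, held 0.0673% of counts at 24 hpf and 1.73% and 1.74% in the 48 hpf replicates. let-7a, the most abundant member, stood at 492 normalised CPM at 24 hpf (414 to 581), and at 12245 and 9162 at 48 hpf. let-7e stood at 35.2 (16.9 to 64.6, from 10 counts) at 24 hpf, and at 2001 and 1969 at 48 hpf. Both lay more than an order of magnitude higher in each 48 hpf replicate, and the stages did not overlap. let-7e had the largest called change among microRNAs whose rounded count at 24 hpf was not 0, 56.4-fold (log2 5.82, SE 0.79, adjusted p = 0.0178 in edgeR). let-7a rose 21.7-fold (log2 4.44, SE 0.75, adjusted p = 0.0214).

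let-7d-5p stood at 63.3 normalised CPM at 24 hpf, and at 1838 and 1156 at 48 hpf (log2 4.56, SE 0.76). let-7c-5p went from 38.7 (19.3 to 69.2) to 709 and 601 (log2 4.08, SE 0.80), and let-7g from 59.8 (34.8 to 95.7) to 666 and 639.6 (log2 3.45, SE 0.67). These 3 members were again higher in each 48 hpf replicate than at 24 hpf, with adjusted p of 0.0214, 0.0280 and 0.0280 in edgeR. let-7f had a count that rounded to 0 at 24 hpf, and 189 and 153 normalised CPM at 48 hpf. The mean of its 48 hpf replicates was 16.2-fold above the level of 3 counts, and let-7f passed (edgeR, adjusted p = 0.0271). With reads counted at every copy in place of divided, its log2 difference was 5.92 in place of 11.2. The 0 therefore need not mean that no read was present. Members of the family are nearly identical in sequence, and reads could be split between them. The other 4 tested members were low throughout and did not pass, let-7b with 49.2, 112 and 77.7 normalised CPM in the 3 libraries and let-7h with 14.1, 6.76 and 11.7. Over the 10 tested members, 6 rose and 0 fell, against 4.91% and 3.4% of all tested microRNAs. With members at 0 counts set to their bound, the family's median was 3.73 on the log2 scale, against 0.00 for all tested microRNAs.

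miR-9 is made by neural progenitors and neurons, and its 4 tested entries all rose. The 4 are arms and copies of related hairpins and are not independent, with miR-9-5p summed over 7 genomic copies and miR-9-3p over 5. miR-9-5p stood at 383 normalised CPM at 24 hpf (315 to 462), and at 2689 and 5852 at 48 hpf (log2 3.48, SE 0.74, adjusted p = 0.0293). miR-9-3p went from 134 to 860.1 and 1619 (log2 3.21, SE 0.69), and miR-9-7-3p from 35.2 to 292 and 425 (log2 3.35, SE 0.78). miR-9-4-3p, from 6 counts or 21.1 normalised CPM at 24 hpf (7.74 to 45.9), stood at 589 and 745 at 48 hpf (log2 4.98, SE 0.76, adjusted p = 0.0214). The stages did not overlap in any of the 4, although replicate 2 was higher than replicate 1 in each. The calls of miR-9-5p, miR-9-3p and miR-9-7-3p were also lost in 4, 5 and 4 alternative runs that kept both Endo libraries at 48 hpf. Among these was the run with reads counted at every copy. In NoEndo, miR-9-5p stood at 527 at 24 hpf and at 13871 and 16634 at 48 hpf, above Endo at both stages.

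The neural list as a whole, which besides miR-9 holds miR-124 and other neural microRNAs, made up 0.644% of Endo counts at 24 hpf and 1.11% and 2.15% at 48 hpf. In NoEndo it made up 0.883%, 4.46% and 8.88%. Of its 27 tested members, 4 rose, all of them entries of miR-9, 0 fell and 23 did not pass, where 4.91% of all tested microRNAs rose. With members at 0 counts set to their bound, the median was 0.27 on the log2 scale, against 0.00 for all tested microRNAs. miR-124-3p, the defining microRNA of neurons, stood at 17.6 normalised CPM at 24 hpf, from 5 counts, and at 3.86 and 21.3 at 48 hpf. It thus stayed at 20 counts or fewer in each of the 3 libraries, and its level at 24 hpf lay between those of the 48 hpf replicates. The part of neural RNA in the increase of miR-9 was not tested.

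miR-139-5p, a microRNA studied in vascular and tumour cells, stood at 355 normalised CPM at 24 hpf (289 to 431), and at 2671 and 3118 at 48 hpf. It rose 8.15-fold (log2 3.03, SE 0.57, adjusted p = 0.0280). The other arm of its hairpin, miR-139-3p, did not pass, with 612 at 24 hpf and 440.2 and 152 at 48 hpf (log2 -1.05, SE 0.79). In NoEndo, miR-139-5p was low at both stages, with 131 at 24 hpf and 218 and 194 at 48 hpf.

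miR-16c-5p belongs to the miR-15 and miR-16 family, which restrains the cell cycle. It stood at 432 normalised CPM at 24 hpf (359 to 516), and at 3008 and 3089 at 48 hpf (log2 2.82, SE 0.56, adjusted p = 0.0280). The 48 hpf replicates were close together and both far above the 24 hpf library. The family held 1.74% of counts at 24 hpf and 6.62% and 6.56% at 48 hpf. Its most abundant members at 48 hpf were miR-16b, miR-15c and miR-16a. miR-16a, at 2829.8, 17757 and 11805 normalised CPM, did not pass (log2 2.38, SE 0.66, adjusted p = 0.0758), nor did miR-16b (log2 2.15, SE 0.63, adjusted p = 0.0817). miR-145-5p, a microRNA of the smooth muscle cells and pericytes that cover vessels, rose from 148 normalised CPM (106 to 199.6) to 899.7 and 802 (log2 2.53, SE 0.57, adjusted p = 0.0359). It was the 1 called member among the 9 tested in the list of smooth muscle and mesenchyme, where 4.91% of all tested microRNAs rose. The summed share of that list was 0.951% at 24 hpf and 0.887% and 1.12% at 48 hpf.

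The miR-430 family held 30.2% of counts at 24 hpf and 3.23% and 3.74% at 48 hpf, most of it miR-430b-3p. miR-430b-3p alone made up 27.7% of the 24 hpf library and 2.22% and 2.64% of the 48 hpf replicates. Its level was 315188 normalised CPM at 24 hpf, and 22874 and 20874 at 48 hpf, a 14.4-fold decrease (log2 -3.85, SE 0.64, adjusted p = 0.0214). It ranked above miR-92a-3p at 24 hpf and below it in both 48 hpf replicates. miR-430c-3p was rarer, at 1519 normalised CPM at 24 hpf and 57.0 and 133 at 48 hpf, a 16.0-fold decrease (SE 0.73 on the log2 scale, adjusted p = 0.0271).

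miR-430a-3p, the third of the abundant 3p arms, did not pass, with 24224 normalised CPM at 24 hpf and 7986 and 6507 at 48 hpf (log2 -1.74, SE 0.57, adjusted p = 0.104). The 5p arms lay closer between the stages, miR-430b-5p with 429 at 24 hpf and 309.9 and 379.9 at 48 hpf, and miR-430a-5p with 1279.5, 442 and 581. Of the 7 tested members, 2 fell and 0 rose, against 3.4% and 4.91% of all tested microRNAs. The fitted difference was below 0 in all 7, against 123 of all 265. That of miR-430b-5p turned to 0.05 under scaling by total counts alone. The median of the 7 was -1.32 on the log2 scale, against 0.12 for all tested microRNAs. The 3p members lie in 18 to 20 genomic copies each, and reads that map to several copies were divided among them by the authors.

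miR-25-5p had the smallest adjusted p among the decreases. It stood at 2956 normalised CPM at 24 hpf (2759.9 to 3163), and at 238 and 185 at 48 hpf, a 14.0-fold decrease (log2 -3.80, SE 0.53, adjusted p = 0.0178). The other arm of the same hairpin, miR-25-3p, was the more abundant and did not pass, with 21598, 19428 and 17272 normalised CPM (log2 -0.24, SE 0.56). miR-25 lies on chromosome 14 of Zv9, with the 5p arm at 205409-205431 and the 3p arm at 205372-205393 of the minus strand. Next to it, at 205476-205498, lies miR-19d-3p, which fell from 12156 normalised CPM to 2728 and 3286 (log2 -2.02, SE 0.48, adjusted p = 0.0456) and was the call with the highest adjusted p. In the gene table of the newer assembly GRCz12tu, used for names only, both hairpins lie within mcm7, a gene of the DNA replication helicase.

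miR-25 and miR-19d are members of the miR-17-92 family, which promotes proliferation and is abundant in dividing cells. The family made up 26.7% of counts at 24 hpf and 18.3% and 20.2% at 48 hpf. Its chief member miR-92a-3p, which restrains vessel growth in mice, held 19.9% at 24 hpf and 13.5% and 13.2% at 48 hpf and did not pass (log2 -0.90, SE 0.64, adjusted p = 0.404). Of 23 tested entries, 2 fell, 0 rose and 21 did not pass, where 3.4% of all tested microRNAs fell. The median was -1.24, against 0.12 for all tested microRNAs. Among the uncalled entries, miR-19b-3p stood at 5691 normalised CPM at 24 hpf and at 679 and 1759 at 48 hpf, and miR-92a-5p at 299, 60.8 and 27.7. In both, each 48 hpf replicate was at least 2-fold below the 24 hpf library, with the replicates themselves 2-fold apart.

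The miR-10 microRNAs sit in the Hox clusters and, in zebrafish, miR-10 has been tied to the sprouting of vessels. miR-10a-5p stood at 13270.1 normalised CPM at 24 hpf, and at 2998 and 2407 at 48 hpf (log2 -2.30, SE 0.49, adjusted p = 0.0293). miR-10c-5p went from 9217 to 1563 and 2203 (log2 -2.29, SE 0.48, adjusted p = 0.0293), and miR-10b-5p from 2123 to 265 and 458 (log2 -2.55, SE 0.58, adjusted p = 0.0359). All 3 fell between 4.90- and 5.87-fold, with no overlap of the stages. The calls of miR-10a-5p, miR-10b-5p and miR-10c-5p were lost in 3, 5 and 1 alternative runs that kept both Endo libraries at 48 hpf. Scaling by total counts alone was among these for each of the 3. miR-10a-5p lies on chromosome 12 at 28705917-28705938 and miR-10c-5p on chromosome 3 at 24011907-24011928 of Zv9, both on the plus strand. In GRCz12tu their hairpins lie within hoxb1b and hoxb3a, and the 1 hairpin matched for miR-10b lies within hoxd3a. In Zv9, miR-10b-5p has 2 genomic copies, on chromosomes 9 and 23, and its reads cannot be assigned to 1 of them. The 3p arms and the miR-196 members did not pass. miR-196b, for example, stood at 879 at 24 hpf and at 394 and 311 at 48 hpf (log2 -1.32, SE 0.64). Over the list, 3 of 13 tested members fell and 0 rose, against 3.4% and 4.91% of all tested microRNAs. The list's share of counts was 2.44% at 24 hpf against 0.698% and 0.875% at 48 hpf.

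miR-200a-3p, of the miR-200 family that maintains epithelia, fell from 134 normalised CPM (94.5 to 183) to 12.5 and 13.8 (log2 -3.33, SE 0.70, adjusted p = 0.0293). Its neighbours on chromosome 23 did not pass, miR-200b-3p with 1100.3 at 24 hpf and 723 and 345 at 48 hpf, and miR-429a with 155, 60.8 and 84.1. Members on chromosome 6 lay above 0 and did not pass. On the log2 scale, miR-200c-3p was at 1.73, miR-429b at 1.27 and miR-141-3p at 0.16. Of these, miR-200c-3p was at least 2-fold higher in both 48 hpf replicates. The most abundant epithelial microRNA, miR-205-5p, stood at 28969 at 24 hpf and at 9483 and 4919.6 at 48 hpf and did not pass either (log2 -2.01, SE 0.93, adjusted p = 0.211). The epithelial list held 3.46% of Endo counts at 24 hpf and 1.48% and 0.988% at 48 hpf. Of its 12 tested members 1 fell and 0 rose, where 3.4% of all tested microRNAs fell. The fitted difference was above 0 in 3 of the 12 and below 0 in 9, against 142 and 123 of all tested microRNAs. The list's median was -1.11, against 0.12 for all tested microRNAs. In NoEndo the same list held 8.59%, 25.5% and 7.30%, a wide gap between its 48 hpf replicates. The part of epithelial RNA in the Endo value of miR-200a-3p was not tested.

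miR-193b-5p fell from 288 normalised CPM (229 to 358) to 34.8 and 26.6 (log2 -3.23, SE 0.66, adjusted p = 0.0293). The more abundant arm, miR-193b-3p, stood at 1279.5, 343 and 276 and did not pass (log2 -2.05, SE 0.58, adjusted p = 0.0758). Both arms were at least 2-fold lower in each 48 hpf replicate.

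Several microRNAs known from endothelium were abundant at both stages and did not pass. miR-222a-3p, which limits endothelial proliferation in culture, held 9.43% of counts at 24 hpf and 10.7% and 7.52% at 48 hpf. Its partner miR-221-3p, needed for tip cell behaviour in zebrafish, held 5.89%, 5.84% and 6.16%. miR-181a-5p, abundant as well, stood at 15583, 11550.2 and 13533 normalised CPM and did not pass. For miR-221-3p and miR-222a-3p, the 24 hpf share lay between those of the 48 hpf replicates. miR-126a-3p held 1.08% at 24 hpf against 3.45% and 6.43%, higher in both replicates, and did not pass (log2 1.81, SE 0.68, adjusted p = 0.144).

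miR-23a-3p and miR-23b, of clusters that support vessel sprouting in mice, showed wider gaps. miR-23b stood at 5329 normalised CPM at 24 hpf, and at 50630.5 and 29456 at 48 hpf (log2 2.91, SE 0.78, adjusted p = 0.0756). miR-23a-3p stood at 5983, 43675 and 27202 (log2 2.57, SE 0.76, adjusted p = 0.0817). Both were more than 4-fold higher in each replicate and missed the threshold. The list of miR-23, miR-24 and miR-27 held 1.34% of counts at 24 hpf and 9.60% and 7.89% at 48 hpf. Of its 11 tested members 0 were called, where 8.3% of all tested microRNAs were. The median was 0.99, against 0.12 for all tested microRNAs. At an unadjusted p under 0.05 in edgeR, miR-23a-3p, miR-23b and miR-27c-3p were higher, the last from 2 counts at 24 hpf. Of all tested microRNAs, 26.4% had an unadjusted p under 0.05, in either direction.

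Further uncalled microRNAs were higher in both 48 hpf replicates. miR-30c-5p stood at 5421 normalised CPM at 24 hpf and at 42893 and 14816 at 48 hpf (adjusted p = 0.190), and miR-125a at 9171, 38077 and 23544 (adjusted p = 0.159). miR-222b stood at 24.6 at 24 hpf, from 7 counts, and at 249 and 288 at 48 hpf (log2 3.45, SE 0.96, adjusted p = 0.0758). miR-454a stood at 45.7, 261 and 336 (adjusted p = 0.102). miR-210-5p, of a hairpin induced by low oxygen, stood at 379.6, 2039.7 and 1427 (adjusted p = 0.0758). In miR-30c-5p the 48 hpf replicates differed from each other more than 2-fold, while those of miR-222b and miR-210-5p did not. In the other direction, miR-22a-3p stood at 15123, 5379 and 4557 (adjusted p = 0.193), miR-199-5p at 7825, 1759 and 2823 (adjusted p = 0.145), and miR-7b at 352, 62.7 and 99.0 (adjusted p = 0.102). miR-135b-3p, miR-34c-5p and miR-730 had 0 counts at 24 hpf and at least 10 CPM in both 48 hpf replicates. The highest was miR-135b-3p with 24.1 and 51.1 normalised CPM, a mean 3.57-fold above the level of 3 counts.

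The gate could hold other cells, and microRNAs known from other cell types were present at both stages. Whether these came from other cells was not tested. The leukocyte list held 0.972% of Endo counts at 24 hpf and 5.24% and 3.76% at 48 hpf, against 0.0721%, 0.118% and 0.141% in NoEndo. Most of it was miR-150, a microRNA of lymphocytes, with 8834 normalised CPM at 24 hpf and 47075 and 23695 at 48 hpf (4.01-fold, SE 0.80 on the log2 scale, adjusted p = 0.159). The myeloid miR-223 stood at 1512, 6595 and 5562 (log2 2.01, SE 0.58, adjusted p = 0.0782). Both were more than 2-fold higher in each replicate, whereas miR-146a stood lower, at 274, 49.2 and 120.3. Of the 6 tested members of the list, 3 lay above 0 and 3 below. Against both replicates, 2 were at least 2-fold higher and 2 at least 2-fold lower, as were 24.2% and 19.2% of all tested microRNAs. The median was 0.03 on the log2 scale, against 0.12 for all tested microRNAs. None of the 6 was called, where 8.3% of all tested microRNAs were. Whether leukocytes in the gate account for miR-150 was not tested.

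For lists of other tissues, the shares at 24 hpf and in the 48 hpf replicates were 1.04%, 0.966% and 1.05% for striated muscle, 0.0222%, 0.0198% and 0.0249% for erythroid cells, and 0.0367%, 0.0189% and 0.0233% for liver and gut. In normalised CPM the liver and gut list stood at 418 at 24 hpf and at 195 and 184 at 48 hpf. Of its 4 tested members, 2 were at least 2-fold lower in both replicates, as were 19.2% of all tested microRNAs. The striated muscle and erythroid lists differed less than 2-fold between the stages on both scales. The eye list held 0.619%, 2.32% and 1.40%, most of it miR-204-5p with 5241 normalised CPM at 24 hpf and 23346 and 10511 at 48 hpf. Over its 4 tested members the median was -0.79 on the log2 scale, against 0.12 for all tested microRNAs. Of the 4, 1 was at least 2-fold higher in both replicates and 2 at least 2-fold lower, against 24.2% and 19.2% of all tested microRNAs. The pancreas and sensory lists stayed at or below 0.112% in each library. No tested member of these 6 lists was called, where 8.3% of all tested microRNAs were.

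**Figure D3:**
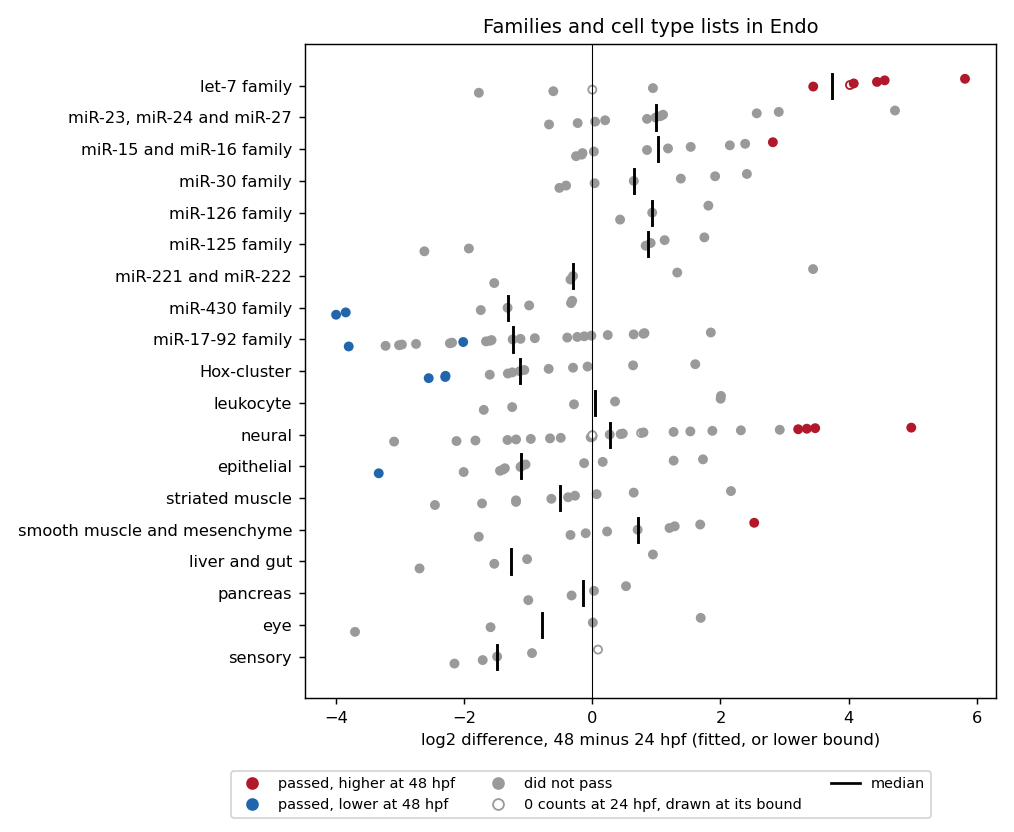
Differences between 48 and 24 hpf on the log2 scale of each tested microRNA in families (upper rows) and cell type lists (lower rows), with vertical bars at the list medians. Filled red and blue points passed the test, and grey did not. Open points had 0 counts at 24 hpf after rounding and stand at their bound. The point furthest to the right is let-7e, and the called points of miR-430, miR-17-92 and the Hox clusters lie to the left of -2.

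Some neighbours in the genome were called together, as let-7f and let-7a on chromosome 11, let-7a and let-7e on chromosomes 6 and 23, and miR-9-5p and miR-9-3p. Others were not. let-7a lies within 10 kb of miR-100 and miR-125b at 2 places, on chromosome 5 with let-7a at 31628956-31628977 and on chromosome 15 at 20399528-20399549 of Zv9. While let-7a rose by 4.44 on the log2 scale, miR-100-5p was at 0.00 (SE 0.52), with 1916 normalised CPM at 24 hpf and 2094 and 1743 at 48 hpf. miR-125b-5p was at 0.91 (SE 0.72), with 31947, 71607 and 48507, and did not pass. let-7c-5p on chromosome 15 at 29144939-29144960 rose by 4.08, while miR-99 next to it was at 0.29 (SE 0.49) and miR-125c-5p at 0.83 (SE 0.66). let-7a has 7 genomic copies and let-7c-5p has 2, and reads cannot be assigned to 1 of them. miR-100-5p turned below 0 by DESeq2 size factors (-0.24), while the differences of let-7a and let-7c-5p kept their sign in each alternative run.

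Within the miR-17-92 cluster on chromosome 1, miR-17a-5p was at 0.65 and miR-20a-5p at 0.81 on the log2 scale, while miR-19a-3p was at -2.19, and none of the 9 entries of the cluster passed. miR-19a-3p stood at 2085 normalised CPM at 24 hpf and at 208 and 707 at 48 hpf, and miR-17a-5p at 2584, 3398 and 4683. In the related cluster on chromosome 14, miR-19c-3p was at -1.57 and miR-18c at 1.85. On chromosome 8, miR-23b was at 2.91, miR-27b-3p at 0.85 and miR-24 at 0.20. Of these microRNAs, miR-17a-5p, miR-19a-3p, miR-20a-5p and miR-23b have 2 genomic copies each and miR-24 has 5. Their values are summed over copies on other chromosomes too and cannot be assigned to 1 cluster. The differences of miR-24 and miR-20a-5p changed sign under some alternatives, as did that of miR-99.

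**Figure D4:**
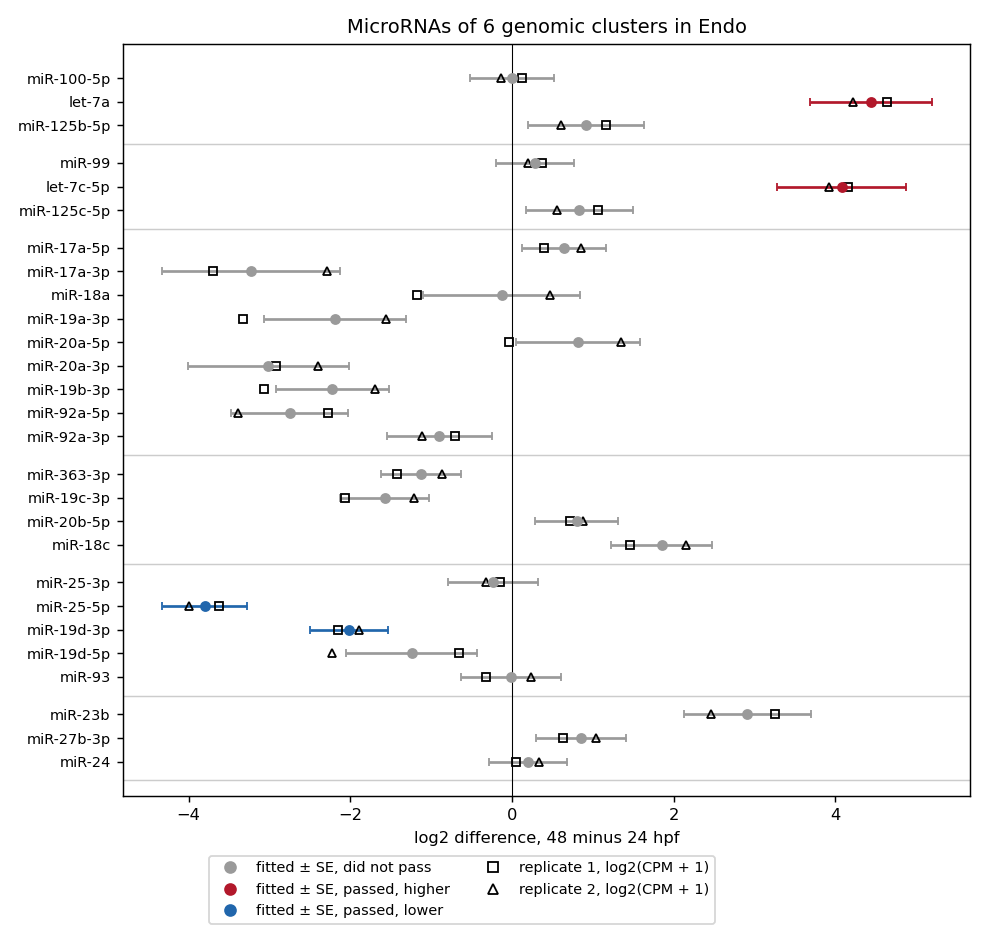
Fitted log2 differences between 48 and 24 hpf with SE bars for microRNAs of 6 genomic clusters, separated by grey lines, with open squares and triangles for each 48 hpf replicate on the scale of log2(CPM + 1). The let-7 members lie more than 3 units to the right of their neighbours miR-100-5p and miR-99, and miR-25-5p lies more than 3 units to the left of miR-25-3p. The value of a microRNA with several genomic copies is summed over all of them.

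The ratio of the 5p to the 3p arm of a hairpin does not depend on the scaling between libraries. Where the arms are summed over different numbers of genomic copies, the ratio also holds reads of other precursors. Of 60 hairpins with both arms tested, 39 had at least 100 counts over both arms in each of the 3 libraries. For each, the share of the arm with fewer counts over the 3 libraries was compared through Wilson intervals. It was lower in both 48 hpf replicates, with intervals apart from that of the 24 hpf library, in 16 hairpins (41%), and higher in both in 7 (17.9%). The remaining 16 overlapped or differed in sign. In the 20 hairpins with a single copy of each arm, the share was lower in both replicates in 8, higher in 2 and neither in 10. These intervals do not include spread between samples, which has no measure at 24 hpf. The arm was chosen on counts that the deeper 48 hpf libraries dominate, which favours a lower share at 48 hpf. Among the 16 are the 3p arms of miR-139 and miR-210, which held 63.3% and 72.9% at 24 hpf. The balance of lower and higher shares is thus no measure of a common direction.

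The 5p arm of miR-25 made up 12.0% of the hairpin's counts at 24 hpf (11.3 to 12.8), and 1.21% (1.07 to 1.37) and 1.06% (0.915 to 1.23) at 48 hpf. The 3p arm of miR-139 went from 63.3% (57.4 to 68.8) to 14.1% (13.0 to 15.4) and 4.65% (3.96 to 5.46), so that the more abundant arm was 3p at 24 hpf and 5p in both 48 hpf replicates. The 3p arm of miR-16c went from 28.9% (22.7 to 36.1) to 5.26% (4.55 to 6.08) and 4.60% (3.91 to 5.40). These 3 hairpins have a single copy of each arm. In miR-25 the arm that passed the test was the less abundant one, and in miR-139 and miR-16c it was the 5p arm, which rose.

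In the other direction, the 3p arm of miR-199, a microRNA of mesenchyme, went from 4.42% (3.66 to 5.34) at 24 hpf to 24.3% (22.6 to 26.1) and 28.1% (26.7 to 29.6). The 5p arm of miR-22a went from 5.53% (4.91 to 6.24) to 18.9% (18.0 to 19.8) and 18.8% (17.8 to 19.9). For miR-199 the 5p arm was summed over 4 copies and the 3p arm over 3, and for miR-22a over 1 and 2. The 5p arm of miR-430b went from 0.136% (0.114 to 0.162) to 1.34% (1.20 to 1.49) and 1.79% (1.61 to 1.98), as the 3p arm fell. The 3p share of miR-9, whose arms both rose, was 25.9% (19.5 to 33.5) at 24 hpf, an interval that overlaps those of 24.2% (22.9 to 25.6) and 21.7% (20.7 to 22.6) at 48 hpf. Its 5p arm was summed over 7 copies and its 3p arm over 5.

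**Figure D5:**
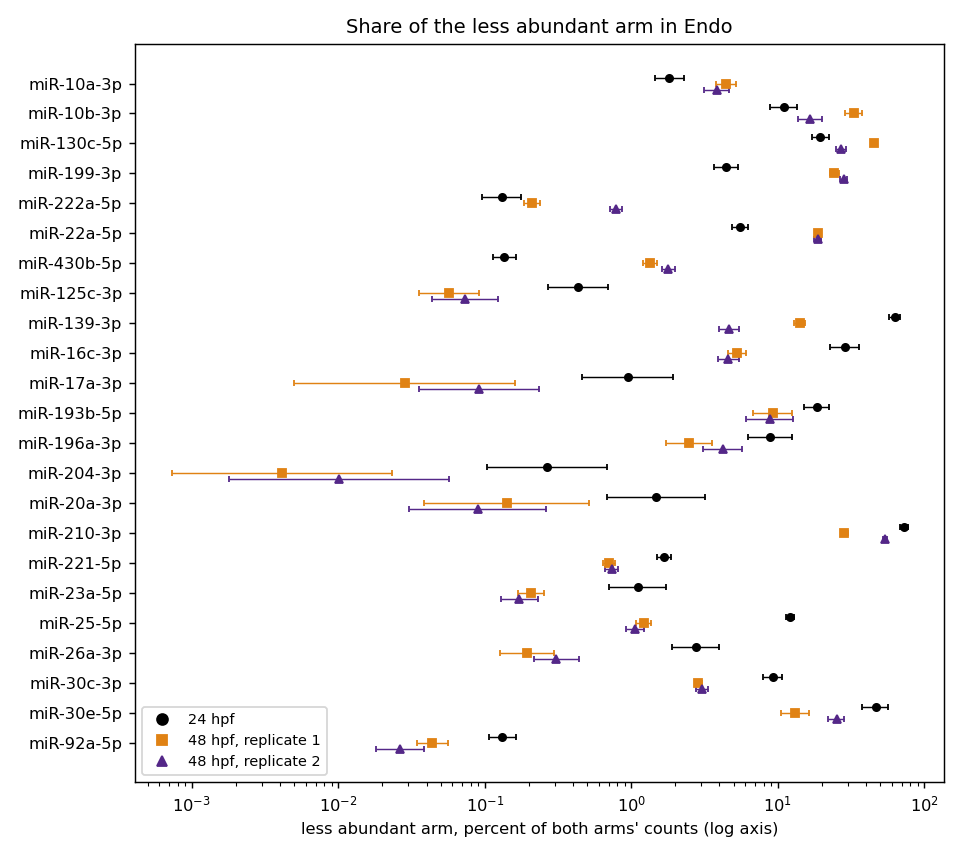
Share among both arms' counts of the arm with fewer counts over the 3 libraries, in percent on a log axis, with 95% Wilson intervals. Shown are the 23 hairpins whose 48 hpf intervals both lie apart from the 24 hpf interval on the same side. In the upper 7 rows the 24 hpf circle lies left of both 48 hpf points, and in the lower 16 rows it lies right of them.

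Whether the early change was particular to Endo was asked with the difference between its change and that of NoEndo. Over all 10 libraries and without a replicate block, no microRNA passed at an adjusted p under 0.05 in edgeR, DESeq2 or limma-voom. At an unadjusted p under 0.05 there were 19 of 265 (7.17%) in edgeR, 17 in DESeq2 and 12 in limma-voom. With the block, a term for the replicate number, 8 passed in edgeR, all more positive in Endo. The labels tie those libraries by number only. The median of the difference over all tested microRNAs was 0.35 on the log2 scale, and -0.39 under scaling by total counts alone. Without NoEndo replicate 1 at 48 hpf, 1 passed in edgeR, miR-30c-3p (adjusted p = 0.0171), named here after its value was seen. All 22 calls of Endo had the same sign in NoEndo, as had 74.0% of all tested microRNAs, and 16 of the 22 were also called there, where 29 (10.9%) were called, 10 higher (3.77%) and 19 lower (7.17%). The 6 that were not are let-7e, let-7f, miR-139-5p, miR-16c-5p, miR-145-5p and miR-200a-3p. Calls in both populations come from 1 fit with a shared spread for each microRNA, so they are not independent. The changes of let-7a, miR-430b-3p and miR-25-5p were close in size in both populations, with NoEndo log2 differences of 4.02, -3.89 and -4.24.

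Of the called microRNAs other than let-7f, the nearest to a difference between populations were let-7e and miR-139-5p. let-7e went from 13.8 normalised CPM to 111 and 64.6 in NoEndo, and its rise in Endo was larger by 3.16 on the log2 scale (edgeR, adjusted p = 0.660). For miR-139-5p the rise in Endo was larger by 2.37 (edgeR, adjusted p = 0.660). Neither passed after adjustment in the fit without a replicate block. In the list of miR-23, miR-24 and miR-27, 7 of 11 tested members had an unadjusted interaction p under 0.05 in edgeR, against 7.17% of all tested microRNAs. Members of this list share genomic clusters, so they are not independent. For miR-23b the difference was 2.95, with NoEndo levels of 8012 at 24 hpf and 9872 and 5683 at 48 hpf, and its adjusted p was 0.660. miR-122, a liver microRNA, had the opposite sign of difference, -3.75, since it rose in NoEndo from 10.3 to 361 and 181, and its interaction did not pass either (adjusted p = 0.660).

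Later Endo libraries, 1 at 72 hpf and 1 at 6 days post fertilization (dpf), were set beside these values without a test. At 72 hpf all 13 microRNAs that rose stood above their 24 hpf level and all 9 that fell stood below it. The same held at 6 dpf except for miR-9-7-3p, with 35.2 normalised CPM at 24 hpf and 17.1 at 6 dpf. For all tested microRNAs the shares above the 24 hpf level were 49.8% at 72 hpf and 49.4% at 6 dpf, and the shares below it 49.1% and 47.5%, but the calls share the 24 hpf library with this count. let-7d-5p stood at 3796 normalised CPM at 72 hpf and 6273 at 6 dpf, above both 48 hpf replicates, and let-7e at 2928 and 1906. miR-430b-3p stood at 4885 and 427, and miR-145-5p at 2845 and 10265. miR-9-5p stood at 2763 and 487, so that at 6 dpf it was close to its 24 hpf level again. Beyond both 48 hpf replicates lay 7 of the 13 increases at 72 hpf and 5 at 6 dpf, and 8 and 6 of the 9 decreases. Of all tested microRNAs, 34.3% and 39.2% lay above both 48 hpf replicates at 72 hpf and 6 dpf, and 33.2% and 42.6% below both.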

How the data were processed

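Small RNA of sorted cells was sequenced from Illumina TruSeq libraries, per the labels' protocols. STAR 2.3.0 and the build Zv9 are listed, per the submitters' processing notes. The sources used here give no microRNA annotation, trimming or counting program. Per the file headers, the deposited tables hold for each genomic copy a read count, an expected count in which a read mapping to several places is divided among them, and a signal scaled to depth.

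The deposited expected counts of sense reads were summed by microRNA name and rounded. MicroRNAs at 10 CPM or more in at least 3 libraries were tested, 265 of 326, and the 61 others had at most 7 counts at 24 hpf. Those tested held at least 99.97% of counts in each Endo library. The quasi-likelihood test of edgeR 4.0.16 (R 4.3.3, TMM scaling, robust, Benjamini-Hochberg adjustment at 0.05) was fitted over 10 libraries with 1 mean per population and stage. It left 2 residual degrees of freedom among libraries and a biological coefficient of variation of 0.455. Differences between single libraries used log2(CPM + 1). DESeq2 1.42.0 and limma 3.58.1 served as alternatives, beside other scalings, filters, sets of libraries and a replicate block. The scripts were tested on simulated data. Replicates at 48 hpf follow the titles, whose numbers differ from those in the file names.

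The members and lists were chosen with earlier results of these data known. The microRNAs named are, at a mean of at least 100 normalised CPM, the 15 largest increases and decreases at least 2-fold against both replicates, the 10 most abundant at each stage, the calls differing most from NoEndo, and members of the lists. Sequences were not used here.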

Additional observations from a re-analysis of the deposited data

Results flagged for a closer look

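Reads antisense to mature microRNAs were deposited separately and used in no comparison. After division over mapping places they numbered 6 in the Endo library at 24 hpf, 0.00185% of its mature reads, and 12 in Endo replicate 2 at 48 hpf, 0.00161%. Both shares lie above 0.000227%, the highest share in a NoEndo library of 24 or 48 hpf, and both counts exceed 3 reads. Endo replicate 1 at 48 hpf held 2.55 such reads, 0.000239%.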

How the results depend on the processing

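With 1 library at 24 hpf the calls rest on the assumed spread. Leaving out 1 library at a time gave 0 to 27 microRNAs higher and 0 to 19 lower, the 0 coming without either Endo library at 48 hpf. By the DESeq2 Wald test 27 were higher and 23 lower, by total counts alone 11 and 2, and over 24 and 48 hpf only 11 and 15. With the replicate block 49 were higher and 39 lower, and 8 differed from NoEndo in the positive direction. The replicates of the 2 populations share only a number in the labels. At 48 hpf the difference between replicates in Endo correlated with that in NoEndo at 0.656 across the 265 tested microRNAs, from 2 pairs of libraries. Leaving out a library gave 0 to 1 difference from NoEndo in the positive direction.

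Of the 2-fold counts, the higher one was 41 over 24 and 48 hpf only and 29 at 4-fold. The lower one was 32 at a filter of 100 CPM and 18 at 4-fold, and with an Endo library at 48 hpf left out 67 to 78, the 78 without replicate 2. The cause of these shifts was not tested. Apart from leaving out an Endo library at 48 hpf, let-7a, let-7c-5p, let-7d-5p, let-7e, let-7f, let-7g, miR-25-5p, miR-430b-3p and miR-9-4-3p stayed called in all 14 alternatives. The other 13 calls were lost in 1 to 7, miR-19d-3p in 7 and miR-10b-5p, miR-145-5p and miR-9-3p in 5 each.

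Of 1432 alternative values for 91 named microRNAs, 21 changed sign, in 11 microRNAs, none of them called. miR-100-5p was at -0.24 by DESeq2 size factors and by the DESeq2 test, -0.058 at 100 CPM, -0.0047 by limma-voom, -0.35 over 24 and 48 hpf only, -0.088 in Endo alone and -0.14 without Endo replicate 1. miR-24 was at -0.053 by DESeq2 size factors and the DESeq2 test and -0.17 over 24 and 48 hpf only, where miR-99 was at -0.071. By total counts alone miR-181a-5p was at 0.051, miR-221-3p at 0.027, miR-25-3p at 0.10 and miR-430b-5p at 0.053. With the replicate block miR-221-3p was at 0.13 and miR-222a-3p at 0.16. Leaving out 1 library at a time, miR-124-3p ranged from -2.17 to 0.28, miR-126b-3p from -0.20 to 0.87, miR-20a-5p from -0.037 to 1.35 and miR-222a-3p from -0.85 to 0.037. Depth limits the rarest microRNAs at 24 hpf, where 3 counts equal 10.5 normalised CPM.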
